A study of Mus musculus with 30 samples.

Results

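Nr4a1, Nr4a2, Nr4a3, Klf2, Klf4, Klf6 and Klf10 were followed in RNA sequencing of haematopoietic stem cells sorted from mouse bone marrow. These 7 genes were chosen by symbol from the 17562 genes of the deposited count table, and all 7 were among the 15675 genes that entered the tests. All animals were male, either B6 or BoyJ, a congenic line of B6 that carries the other form of CD45. Unjoined young mice (YCNT, made up of YB6CNT and YBJCNT) and unjoined old mice (OCNT, made up of OB6CNT and OBJCNT) served as controls. Others were joined by surgery so that 2 animals shared a circulation (parabiosis), with a partner of like age in the isochronic conditions YISO (YISOB6 and YISOBJ) and OISO (OISOB6 and OISOBJ). In the heterochronic conditions the partner was of the other age, and these were YHET (YHETBJ) and OHET (OHETB6). OHETX (OHETB6X) holds old B6 cells that had lodged in the marrow of the young partner. In these codes B6 and BJ give the strain of the mouse that was sampled. The labels give the age of young mice as 8 to 12 weeks, of old B6 mice as 22 months and of old BoyJ mice as 21 months. All YHET libraries were thus BoyJ and all OHET libraries B6. The labels name no engineered deletion, transgene or drug in any group.

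The 3 Nr4a genes encode orphan nuclear receptors, transcription factors that work without a known natural ligand and whose activity follows their abundance. Klf genes encode zinc finger factors that bind CACCC and GC boxes. Most of the genes studied here belong to the immediate early genes, which are transcribed within minutes of a growth factor, stress or flow signal and whose messages decay quickly. In stem cells Nr4a1 and Nr4a3 are known for restraining proliferation, Klf2 for quiescence of lymphocytes and endothelium, and Klf4 for pluripotency and monocyte differentiation.

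Promoters of 6 of the 7 genes were found in the RefSeq table of promoters (GRCm38.p6). They are shown because these genes moved together in part of the libraries, with the CRE core TGACG, read on either strand, in capitals. Each run ends at the base before the annotated start or before the first annotated exon, whichever comes first, and is written 5′ to 3′ on the strand of the gene.
Nr4a1: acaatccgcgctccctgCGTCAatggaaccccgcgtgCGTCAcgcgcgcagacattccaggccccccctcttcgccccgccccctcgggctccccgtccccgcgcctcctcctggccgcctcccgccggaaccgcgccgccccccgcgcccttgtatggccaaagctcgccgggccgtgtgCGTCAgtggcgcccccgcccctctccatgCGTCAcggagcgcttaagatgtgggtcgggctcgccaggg
Nr4a2: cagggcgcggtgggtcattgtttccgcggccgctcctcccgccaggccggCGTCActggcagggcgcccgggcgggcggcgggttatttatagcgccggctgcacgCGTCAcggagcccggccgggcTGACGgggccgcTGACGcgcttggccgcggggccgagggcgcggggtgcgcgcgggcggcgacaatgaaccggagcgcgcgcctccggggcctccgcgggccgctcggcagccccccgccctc
Nr4a3: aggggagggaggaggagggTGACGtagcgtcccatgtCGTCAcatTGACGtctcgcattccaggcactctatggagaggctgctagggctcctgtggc
Klf2: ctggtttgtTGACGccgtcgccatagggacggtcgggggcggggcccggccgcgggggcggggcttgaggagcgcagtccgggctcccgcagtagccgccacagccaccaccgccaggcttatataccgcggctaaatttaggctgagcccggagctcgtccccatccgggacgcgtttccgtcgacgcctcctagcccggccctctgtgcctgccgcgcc
Klf4: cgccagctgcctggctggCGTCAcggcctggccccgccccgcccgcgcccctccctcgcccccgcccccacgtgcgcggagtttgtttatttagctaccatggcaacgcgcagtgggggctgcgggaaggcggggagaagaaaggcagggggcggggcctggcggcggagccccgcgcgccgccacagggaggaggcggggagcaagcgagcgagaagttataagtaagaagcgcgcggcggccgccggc
Klf6: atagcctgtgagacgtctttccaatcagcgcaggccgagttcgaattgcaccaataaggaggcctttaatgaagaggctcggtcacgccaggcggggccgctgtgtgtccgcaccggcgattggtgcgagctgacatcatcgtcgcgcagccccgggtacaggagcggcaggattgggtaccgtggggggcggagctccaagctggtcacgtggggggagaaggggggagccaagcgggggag
The runs lie at chr15:101266596-101266845 on the plus strand (Nr4a1), chr2:57124004-57124253 on the minus strand (Nr4a2), chr4:48045055-48045152 on the plus strand (Nr4a3), chr8:72318812-72319032 on the plus strand (Klf2), chr4:55532476-55532725 on the minus strand (Klf4) and chr13:5861239-5861481 on the plus strand (Klf6). The start used for Nr4a1 is internal to its annotated gene. Klf10 is the seventh gene.

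Motifs were searched on both strands from 250 bases before to 50 bases after each start. The CRE core TGACG, part of the sequence bound by CREB factors, occurred in 5 of the 6 promoters and in 20.8% of all 32851 promoters of the table. The runs above show 4 copies each for Nr4a1 and Nr4a2, 3 for Nr4a3, and 1 each for Klf2 and Klf4. The full CRE TGACGTCA, which contains the core on both strands, was in none of the 6 and in 1.79% of all. The GC box GGGCGG was in 6 of 6 (35.7% of all), and the CACCC box CACCC, a Klf site, in 3 of 6 (57.5% of all). The Nr4a site NBRE, AAAGGTCA, was in none of the 6 (1.51% of all). The CArG box of Srf was also in none (1.63% of all), and the MEF2 site was in 1, Klf2 (0.557% of all). The TATA box TATAAA was in 1, Nr4a2 (13.6% of all). These are letter matches in 1 window and say nothing of whether a factor was bound.

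The annotation (GENCODE, GRCm38) places Nr4a1 (ENSMUSG00000023034) on chromosome 15 at 101254269 to 101274795 and Klf10 (ENSMUSG00000037465) on chromosome 15 at 38291463 to 38300706. Nr4a2 (ENSMUSG00000026826) lies on chromosome 2 at 57106830 to 57124003 and Nr4a3 (ENSMUSG00000028341) on chromosome 4 at 48045153 to 48086447. Klf4 (ENSMUSG00000003032) is also on chromosome 4, at 55527143 to 55532466. Klf2 (ENSMUSG00000055148) lies on chromosome 8 at 72319033 to 72321656 and Klf6 (ENSMUSG00000000078) on chromosome 13 at 5861482 to 5870394. All 7 are protein-coding.

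The count table holds 30 libraries. For 11 of its columns, sample titles and sample descriptions point to different samples: 10 columns carry a code that stands in another sample's title, and 1 a code in no title. Levels and tests therefore rest on the 19 libraries with 1 and the same sample under either label. Unjoined mice gave 4 OCNT and 4 YCNT libraries, isochronic mice 4 OISO and 3 YISO, and heterochronic mice 2 OHET and 2 YHET, with 12269259 to 30932977 counts each. The columns with conflicting labels are described near the end by their library number. No OHETX library is among the 19. The labels list the libraries as separate samples but do not say which animals were partners or whether samples came from separate mice, so p-values measure the spread between these samples. Stem cell markers (12 genes) summed to 3556 to 5276 CPM (counts scaled to the TMM-adjusted library size) in the 16 libraries other than OB6CNT and to 4617 to 5135 in OB6CNT, and none was at 0. In OCNT minus YCNT all 12 had positive values (median 0.44) and edgeR called 2 of them higher, beside 1.14% of all genes. Without OB6CNT 11 of the 12 values were positive and 1 negative, with a median of 0.52. The libraries numbered 28, 29 and 30, which are the whole of OB6CNT, stood apart from the other 16 for most of the 7 genes. Each result of the 7 genes that rests on them is therefore given with and without them.

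Nr4a1, Nr4a2, Klf2, Klf4 and Klf6 were at their highest in the stem cells of unjoined old B6 mice, Nr4a3 overlapped the other libraries, and Klf10 was abundant throughout. Per kilobase of annotated exon, the median level over the 16 libraries outside OB6CNT was 32.5 CPM for Klf10 and 24.1 for Klf6, and then 3.40 for Nr4a2, 1.38 for Klf2, 1.16 for Nr4a1, 0.767 for Klf4 and 0.147 for Nr4a3. In OB6CNT the order was Klf6 (87.1), Klf10 (40.2), Klf2 (18.6), Nr4a2 (16.1), Nr4a1 (14.0), Klf4 (13.2) and Nr4a3 (0.712). In both sets the stress-inducible Klf6 and the TGF-beta-inducible Klf10 led and Nr4a3 was last.

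**Figure D1:**
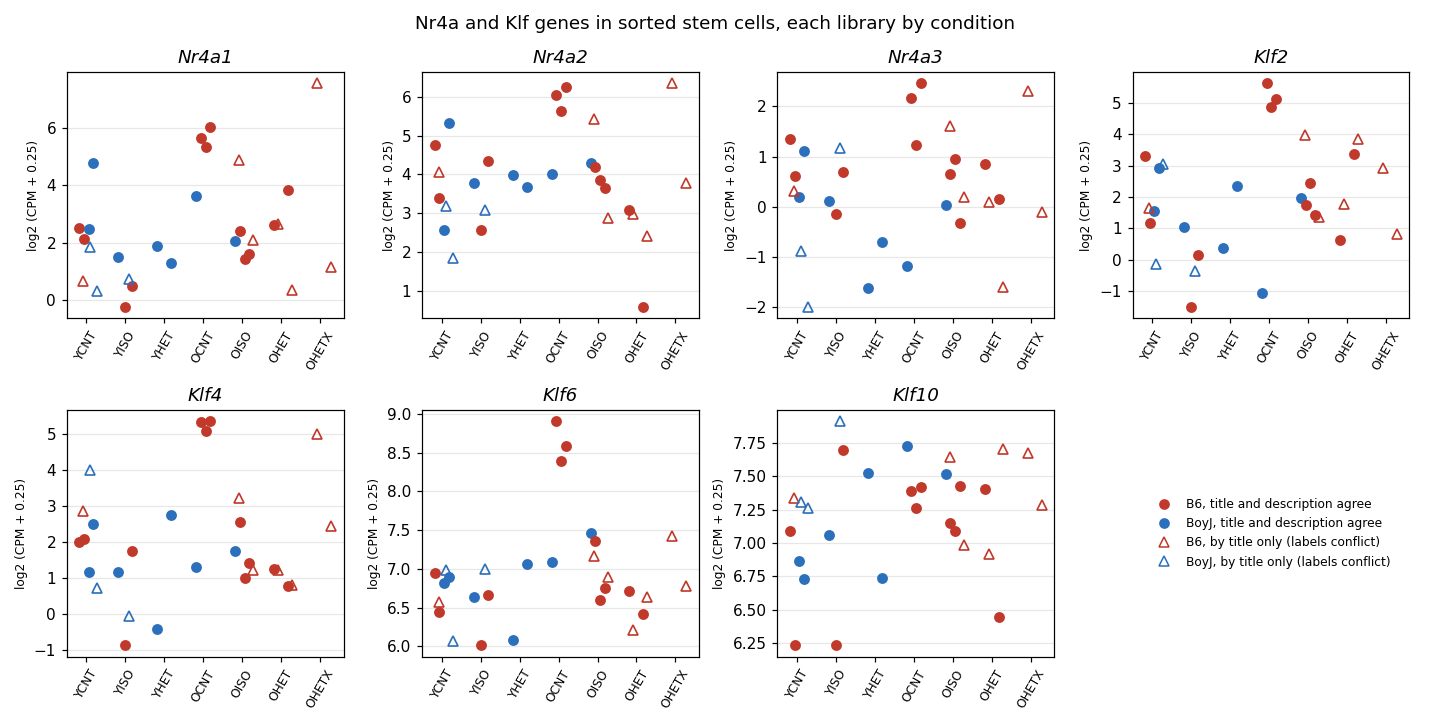
Level of each gene in each library, as log2 of CPM plus 0.25 (vertical axis), by condition (horizontal axis). Filled circles are the 19 libraries whose title and description agree, open triangles are libraries placed by title only, red is B6 and blue is BoyJ; the 3 red OCNT points are the highest filled circles for Nr4a1, Nr4a2, Klf2, Klf4 and Klf6.

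Nr4a1, the receptor also called Nur77, stood at 49.3, 39.9 and 65.5 CPM in OB6CNT replicates 1 to 3 and at 12.1 CPM in OBJCNT replicate 1. In YCNT it was 5.52 and 4.17 in YB6CNT replicates 1 and 3, 5.33 in YBJCNT replicate 3 and 27.4 in YBJCNT replicate 4. The last value overlaps the OCNT range, being above OBJCNT replicate 1 and below all OB6CNT libraries. The isochronic libraries were at 3.94, 5.11, 2.44 and 2.81 CPM in OISO and at 2.61, 0.600 and 1.15 CPM in YISO. The heterochronic libraries were at 5.86 and 14.2 CPM in OHET and at 3.50 and 2.19 CPM in YHET. By mean the order was OCNT (41.7 ± 22.4 CPM, SD, n = 4), YCNT (10.6 ± 11.2, n = 4), OHET (10.0 ± 5.87, n = 2), OISO (3.57 ± 1.20, n = 4), YHET (2.85 ± 0.927, n = 2) and YISO (1.46 ± 1.04, n = 3), and neighbours in this order overlapped throughout except OHET and OISO.

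Nr4a2 (Nurr1) was at 65.4, 48.97 and 76.1 CPM in OB6CNT and at 15.8 CPM in OBJCNT replicate 1. YCNT ranged widely, with 26.6, 10.2, 5.68 and 39.9 CPM, the highest again in YBJCNT replicate 4. OISO stood at 19.5, 17.9, 14.2 and 12.2 CPM and YISO at 13.5, 5.65 and 20.2 CPM. All 4 OISO libraries were below OB6CNT, but 2 of them were above OBJCNT replicate 1. YHET was at 15.5 and 12.6 CPM, and OHET, with 8.28 and 1.25 CPM, was below every OCNT, OISO and YHET library.

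Nr4a3 (Nor1) was scarce. It reached 4.27, 2.10 and 5.27 CPM in OB6CNT and 0.190 CPM in OBJCNT replicate 1. YCNT was at 2.28, 1.27, 0.889 and 1.91 CPM, OISO at 0.771, 1.33, 1.69 and 0.547, and YISO at 0.834, 0.650 and 1.37. OHET was at 1.56 and 0.870 CPM and YHET at 0.0770 and 0.365 CPM. YB6CNT replicate 1, at 2.28 CPM, exceeded the lowest OB6CNT library, so the OB6CNT range was not separate from the other 16 libraries for this gene.

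Klf2, the flow-inducible factor of endothelium and lymphocytes, had a low value in the 1 BoyJ library of OCNT. It was at 49.3, 29.0 and 34.4 CPM in OB6CNT and at 0.227 CPM in OBJCNT replicate 1, with only YISOB6 replicate 1 lower among the 19 libraries. YCNT was at 9.59, 1.98, 2.67 and 7.32 CPM. OISO was at 3.64, 3.12, 5.14 and 2.44 CPM and YISO at 1.82, 0.100 and 0.865 CPM, so that all OISO libraries lay above all YISO libraries. OHET was at 1.28 and 10.1 CPM and YHET at 1.04 and 4.89 CPM.

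Klf4 stood at 40.1, 34.0 and 40.8 CPM in OB6CNT and at 2.24 CPM in OBJCNT replicate 1. YCNT was at 3.74, 4.02, 2.02 and 5.46 CPM, OISO at 3.13, 5.64, 1.77 and 2.44, and YISO at 2.01, 0.300 and 3.10. OHET was at 2.15 and 1.48 CPM and YHET at 0.500 and 6.57 CPM. The highest value outside OB6CNT was thus 6.57 CPM, in YHETBJ replicate 3, against at least 34.0 CPM in OB6CNT.

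Klf6 was at 478, 334 and 382 CPM in OB6CNT and at 136 CPM in OBJCNT replicate 1, all above the YCNT libraries at 123, 87.0, 113 and 118 CPM. OISO stood at 176, 164, 96.5 and 107 CPM and YISO at 99.5, 64.3 and 101 CPM. OHET was at 105 and 85.3 CPM and YHET at 67.5 and 134 CPM. Outside OB6CNT the values lay between 64.3 and 176 CPM, a narrower spread in fold than for the Nr4a genes.

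Klf10 (Tieg1), which is induced by TGF-beta, was abundant in every condition. It was at 168, 154 and 171 CPM in OB6CNT and at 212 CPM in OBJCNT replicate 1, the highest of the 19 libraries. YCNT was at 136, 75.3, 117 and 106 CPM, below every OCNT library. OISO was at 183, 142, 136 and 172 CPM, YISO at 133, 74.96 and 208, OHET at 169.6 and 86.9, and YHET at 184 and 106. In all, 6 libraries outside OB6CNT exceeded its lowest library, and the OB6CNT mean of 164 ± 9.26 CPM (SD, n = 3) was inside the range of the other 16 (74.96 to 212, median 136).

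The means of the other 6 genes gave these orders of conditions. Nr4a2 stood in the order OCNT (51.6 CPM), YCNT (20.6), OISO (15.95), YHET (14.0), YISO (13.1) and OHET (4.76), and all neighbours overlapped. Nr4a3 stood in the order OCNT (2.95 CPM), YCNT (1.59), OHET (1.21), OISO (1.08), YISO (0.951) and YHET (0.221), with overlap between all neighbours but the last pair. Klf2 stood in the order OCNT (28.2 CPM), OHET (5.69), YCNT (5.39), OISO (3.59), YHET (2.97) and YISO (0.928), and Klf4 in the order OCNT (29.3), YCNT (3.81), YHET (3.54), OISO (3.24), OHET (1.81) and YISO (1.80). Klf6 stood in the order OCNT (333 CPM), OISO (136), YCNT (110.3), YHET (101), OHET (95.1) and YISO (88.2), and Klf10 in the order OCNT (176), OISO (158), YHET (145), YISO (139), OHET (128) and YCNT (108). All neighbours overlapped for these 4 genes.

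Set against the other 16 libraries, OB6CNT averaged 51.5 ± 13.0 CPM for Nr4a1 (others 0.600 to 27.4, median 4.05), 63.5 ± 13.7 for Nr4a2 (1.25 to 39.9, median 13.8) and 3.88 ± 1.62 for Nr4a3 (0.0770 to 2.28, median 0.880). It averaged 37.5 ± 10.5 CPM for Klf2 (others 0.100 to 10.1, median 2.55), 38.3 ± 3.75 for Klf4 (0.300 to 6.57, median 2.34) and 398 ± 73.5 for Klf6 (64.3 to 176, median 106). For 5 of the 7 genes, all but Nr4a3 and Klf10, every OB6CNT library was above every other library. YB6CNT shares the strain of OB6CNT, and OISOB6 its strain and age, and every library of both was below OB6CNT for these 5 genes. OB6CNT is 1 labelled group of consecutive library numbers, so being old, B6 and unjoined cannot be told apart from anything those libraries share in handling.

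Old were set against young unjoined mice (OCNT minus YCNT) to ask what age changed without surgery. Klf6 was called higher (log2 fold change 1.58, SE 0.32, edgeR adjusted p = 0.0133), and the other 6 were not called. Genes were called at an adjusted p under 0.05 in a fit over all conditions with a term for strain. Of all genes tested 1.41% were called in either direction and 1.14% called higher, against 1 of the 7. All 7 fitted values were positive, with a median of 1.58, beside a median of -0.02 over all genes tested. The values were 2.67 (SE 0.87, edgeR adjusted p = 0.179) for Klf4, 2.44 (SE 0.68, adjusted p = 0.0927) for Nr4a1 and 2.29 (SE 1.06, adjusted p = 0.425) for Klf2. They were 1.27 (SE 0.64, edgeR adjusted p = 0.486) for Nr4a2, 0.74 (SE 0.27, adjusted p = 0.245) for Klf10 and 0.44 (SE 0.85, adjusted p = 0.913) for Nr4a3. The OCNT libraries were all above the YCNT libraries for 2 of the 7, Klf6 and Klf10, as for 4.81% of all genes.

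The direction in unjoined mice rested on OB6CNT for 5 of the 7 genes. Without the 3 OB6CNT libraries, with OBJCNT replicate 1 as the lone OCNT library and assumed to vary like the others, no gene of the 7 was called. Klf6 was then at 0.15 (SE 0.37, edgeR adjusted p = 0.931) and Klf10 at 0.92. Nr4a1 (-0.21), Nr4a2 (-0.50), Nr4a3 (-2.82), Klf2 (-4.80) and Klf4 (-0.78) turned negative. The call of Klf6 also ended without YB6CNT replicate 1 (log2 fold change 1.65, edgeR adjusted p = 0.0545), without YB6CNT replicate 3 (1.43, edgeR adjusted p = 0.0804) and in a fit of these conditions alone (1.36, edgeR adjusted p = 0.0636), which called Klf10 instead (edgeR adjusted p = 0.0335, where 2.56% of all genes were called).

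Other fits called more of the 7. Within strain B6 alone, Nr4a1 (3.42) and Klf6 were called, where 0.563% of all genes were. DESeq2 called Nr4a1, Klf4 and Klf6 (3.17% of all genes), and limma-voom with sample weights called these and Nr4a2 and Klf10 (4.71% of all genes). Nr4a1 was called by edgeR without YBJCNT replicate 4 (3.08, adjusted p = 0.0134, with 1.02% of all genes called) and without OBJCNT replicate 1 (3.15, adjusted p = 0.00928, with 1.19% called), and in the latter Klf4 was called too (3.33, adjusted p = 0.0389).

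**Figure D2:**
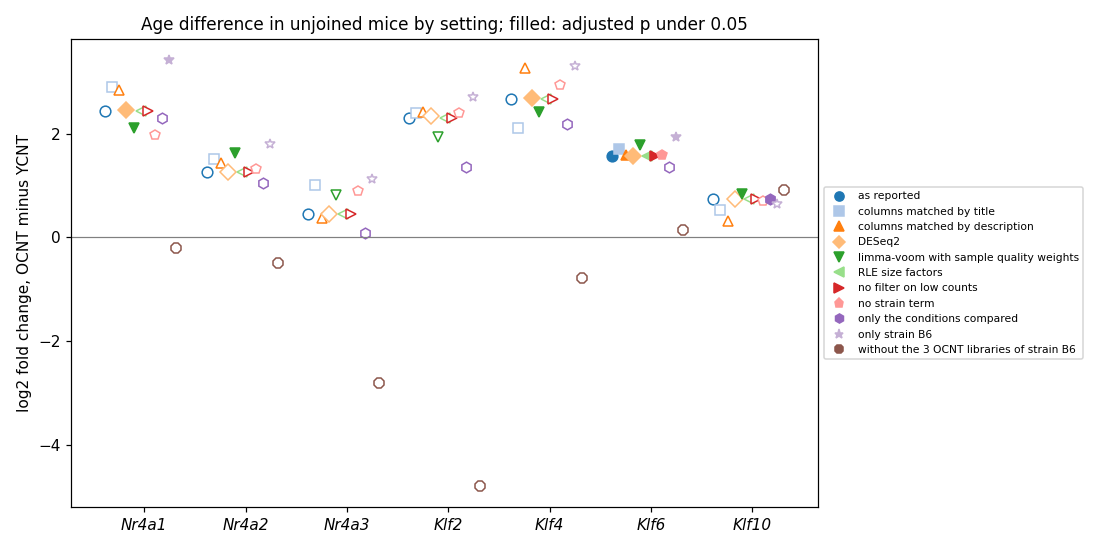
Log2 fold change of each gene in OCNT minus YCNT (vertical axis) in the reported fit and under 10 alternatives (symbols), filled where the adjusted p was under 0.05. Klf6 is filled in most settings, and without the 3 OB6CNT libraries the values of Nr4a1, Nr4a2, Nr4a3, Klf2 and Klf4 fall below 0.

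Old isochronic mice were compared with old unjoined mice (OISO minus OCNT), which share the OCNT libraries with the comparison above. All 7 fitted values were negative, with a median of -1.66 beside -0.00 over all genes. Nr4a1 stood at -3.67 (SE 0.64, edgeR adjusted p = 0.164), and the OISO libraries were all below the OCNT libraries for this gene alone among the 7, as for 2.05% of all genes. Library 11, which is OISO by title only, had 28.9 CPM of Nr4a1 and so was above OBJCNT replicate 1 (12.1 CPM). Klf4 was at -3.04 (SE 0.82, edgeR adjusted p = 0.624), Klf2 at -2.93 (SE 1.03, adjusted p = 0.843) and Nr4a2 at -1.66 (SE 0.61, adjusted p = 0.870). Klf6 was at -1.28 (SE 0.31, edgeR adjusted p = 0.581), Nr4a3 at -1.27 (SE 0.79, adjusted p = 1) and Klf10 at -0.15 (SE 0.26, adjusted p = 1). None of the 7 was called by edgeR, and 0% of all genes were. At an unadjusted p under 0.05 edgeR counted 5 of the 7 and 5.12% of all genes.

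The number called in this comparison changed with the tool. DESeq2 called Nr4a1 (adjusted p = 1.48e-07) and Klf4, where it called 0.211% of all genes. Limma-voom called Nr4a1, Klf4 and Klf6 (0.268% of all genes). Within strain B6 edgeR called Nr4a1 (-3.90, adjusted p = 0.0154) and Klf6 (-1.70, adjusted p = 0.0239), which were 2 of the 6 genes called there (0.0393% of all). Without the 3 OB6CNT libraries the values of Nr4a2 (0.21), Nr4a3 (2.15), Klf2 (4.31), Klf4 (0.56) and Klf6 (0.21) were positive, Nr4a1 was at -0.74 (SE 0.96, edgeR adjusted p = 0.933), Klf10 was at -0.34, and none was called. In the authors' deposited table of OCNT over OISO, Klf6 had a log2 fold change of 1.13 (adjusted p = 0.00414), Klf4 of 1.53 (adjusted p = 0.0803) and Nr4a1 of 1.07 (adjusted p = 0.604). These sizes are another measure than those above. For 89.4% of genes in that table the fold change was not the statistic times its SE. The authors' fold changes had a Pearson r of 0.83 with those computed here by title, and of 0.78 with those of the 19 libraries.

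**Figure D3:**
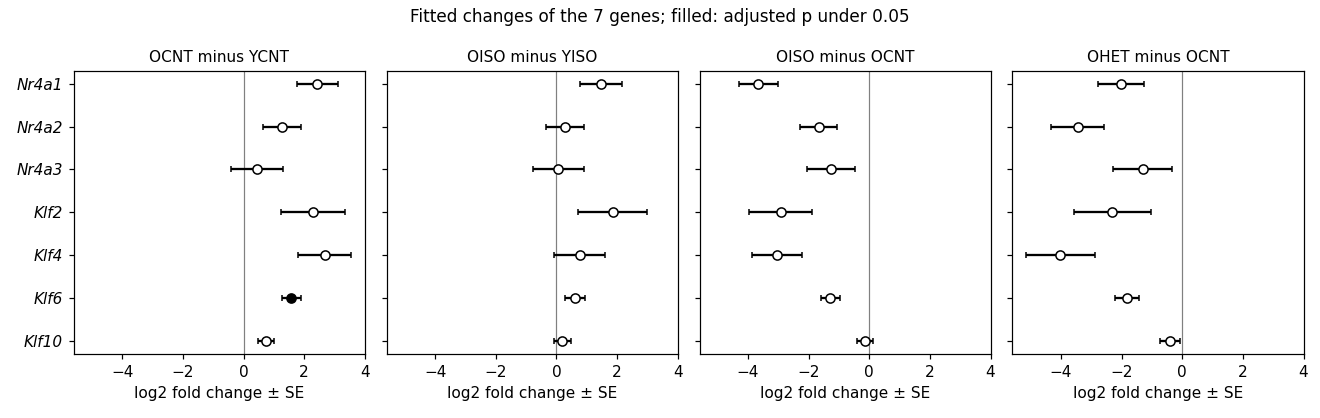
Fitted log2 fold change with its SE (horizontal axis) of the 7 genes in 4 comparisons; a filled point has an edgeR adjusted p under 0.05. Klf6 in OCNT minus YCNT is the 1 filled point, and all points of OISO minus OCNT and OHET minus OCNT lie below 0.

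The old heterochronic libraries were likewise low against the same OCNT libraries (OHET minus OCNT). All 7 values were negative, with a median of -2.01 beside -0.01 over all genes, edgeR called none of the 7 and 0% of all genes. At an unadjusted p under 0.05 the counts were 4 of the 7 and 11.4% of all genes. Klf4 was at -4.02 (SE 1.14, edgeR adjusted p = 0.256), Nr4a2 at -3.45 (SE 0.86, adjusted p = 0.213) and Klf6 at -1.81 (SE 0.40, adjusted p = 0.125). For these 3 the OHET libraries were all below OCNT, as for 9.39% of all genes. Nr4a1 was at -2.01 (SE 0.77), Klf2 at -2.30 (SE 1.27), Nr4a3 at -1.31 (SE 0.99) and Klf10 at -0.41 (SE 0.33). Without the 3 OB6CNT libraries Nr4a1 (1.01), Nr4a3 (2.25) and Klf2 (5.09) turned positive. Nr4a2 (-1.46), Klf4 (-0.27), Klf6 (-0.21) and Klf10 (-0.62) stayed negative, and none was called. DESeq2 called Nr4a2, Klf4 and Klf6, where it called 1.3% of all genes, and limma-voom called none of the 7. Klf6 was 1 of the 4 genes called with columns matched by title (-1.86, edgeR adjusted p = 0.00901; 0.0249% of all genes). The authors' deposited table of OCNT over OHET gives log2 fold changes of 1.64 (adjusted p = 1.58e-06) for Klf6, 2.07 (adjusted p = 6.77e-05) for Klf4 and 1.80 (adjusted p = 0.000448) for Nr4a2. In that table too the sizes are another measure, with 93.9% of fold changes not the statistic times its SE.

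Age was also compared among joined mice. In OISO minus YISO, the age comparison in isochronic animals, all 7 values were positive with a median of 0.62 (0.00 over all genes). EdgeR, DESeq2 and limma-voom called none of the 7, against 0.74% of all genes by edgeR. At an unadjusted p under 0.05 the counts were 1 of the 7 and 11.6% of all genes. Klf2 was at 1.85 (SE 1.13, edgeR adjusted p = 0.564; 1.20 without YISOB6 replicate 1 and 3.10 without YISOBJ replicate 2), with all OISO above all YISO libraries as for 5.37% of all genes. Nr4a1 was at 1.47 (SE 0.68, edgeR adjusted p = 0.413) and Klf6 at 0.62 (SE 0.33, adjusted p = 0.485). The test of the difference between this age effect and that in unjoined mice called none of the 7 with any of the 3 tools, and 0% of all genes with edgeR. At an unadjusted p under 0.05 were 1 of the 7 and 4.7% of all genes. For Klf6 the age effect was larger in unjoined mice by 0.96 (SE 0.45, unadjusted p = 0.0454, edgeR adjusted p = 0.988), and for Klf4 by 1.90 (SE 1.15, adjusted p = 0.988). Without OB6CNT both differences changed sign, to -0.48 and -1.61.

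In OHET minus YHET, where age and strain differ together, none of the 7 was called by edgeR, DESeq2 or limma-voom, against 0.153% of all genes by edgeR. Here 3 values were positive and 4 negative, and 1 of the 7 had an unadjusted p under 0.05, as had 11.9% of all genes. In OHET minus OISO, the comparison of young and old partners for old stem cells, 0 of the 7 were called by any of the 3 tools and 0% of all genes by edgeR, with 2 of the 7 and 11% of all genes at an unadjusted p under 0.05. Nr4a1 was at 1.65 (SE 0.69, edgeR adjusted p = 0.398), with both OHET libraries above the OISO libraries as for 8.08% of all genes, but at -0.17 with columns matched by title. This value was 0.88 without OHETB6 replicate 4 and 2.16 without OHETB6 replicate 3. Neutrophil markers summed to 627 CPM in OHETB6 replicate 4, 121 in OHETB6 replicate 3 and 896 in OISOB6 replicate 5. Their part in these values was not tested. Nr4a2 was at -1.79 (SE 0.80, edgeR adjusted p = 0.425), with both OHET libraries below as for 8.15% of all genes. It was -3.70 without OHETB6 replicate 3 and -0.98 without OHETB6 replicate 4, each leaving 1 OHET library.

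Among the 19 libraries, young isochronic mice had less Nr4a1 than young unjoined mice in every library (YISO minus YCNT), with a fitted value of -2.70 (SE 0.70, edgeR adjusted p = 0.516). Klf2 was at -2.48 (SE 1.12, edgeR adjusted p = 0.598). For these 2 genes the YISO libraries were all below the YCNT libraries, as for 4.15% of all genes. This separation did not hold with the libraries that are YCNT by title only. Libraries 5, 8 and 10 had 1.33, 3.40 and 1.01 CPM of Nr4a1, against 0.600 to 2.61 in YISO. Library 8 had 0.663 CPM of Klf2, against 0.100 to 1.82 in YISO. EdgeR called none of the 7 in YISO minus YCNT, YHET minus YCNT or YHET minus YISO, and in each 0% of all genes. At an unadjusted p under 0.05 the counts were 2, 2 and 0 of the 7, beside 8.19%, 5.14% and 6.7% of all genes. DESeq2 called Nr4a1 in YISO minus YCNT (adjusted p = 0.0033, with 0.6% of all genes called) and none of the 7 in YHET minus YCNT or YHET minus YISO, and limma-voom called none in any. The authors' deposited table of YCNT over YISO gives Nr4a1 a log2 fold change of 0.33 (adjusted p = 0.628), on the authors' own scale.

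The genes other than Klf10 varied together over the 19 libraries, with r between 0.49 and 0.93, and Klf10 had r between -0.04 and 0.50 with them. The log2 levels of Klf4 and Klf6 had a Pearson r of 0.93 over the 19 libraries and 0.77 over the 16 without OB6CNT. Klf2 was most like Klf4 (0.81 and 0.57). Over the 19 libraries Nr4a3 was most like Klf4 (0.70 and 0.44), Nr4a1 most like Klf6 (0.77 and 0.34) and Nr4a2 most like Klf6 (0.73 and 0.44). Over the 16 these partners changed, to Klf2 for Nr4a3 (0.47), Klf2 for Nr4a1 (0.46) and Klf10 for Nr4a2 (0.47). Klf10 was most like Nr4a2 (0.50 and 0.47). Nr4a1 and Nr4a2, at 0.51 over 19 libraries, had an r of 0.03 without OB6CNT. These values describe libraries that share a sequencing design and differ in condition, and they carry no test.

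The genes whose levels were most like the mean standardised level of the 7 over the 19 libraries were Jun (r = 0.88), Tgoln1 (0.87), Junb (0.87), Fos (0.87), Egr1 (0.87) and Nabp1 (0.87). Without OB6CNT, r was 0.59, 0.56, 0.65, 0.60, 0.69 and 0.57 in that order. The genes most like the 7 over those 16 libraries were others: Trim30d (0.85), Lfng (0.84), Cpeb4 (0.82), Zmat3 (0.82), Efna1 (0.82) and Lime1 (0.82). These were taken by the same measure and named after their values were seen. Jun, Junb and Fos encode AP-1 subunits and Egr1 is a zinc finger factor, and all 4 are immediate early genes.

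A list of 30 AP-1, Egr and other immediate early genes moved with OB6CNT as well. They summed to 4840 to 5332 CPM in the 3 OB6CNT libraries and to 757 to 2136 CPM in the other 16, with 1122 CPM in OBJCNT replicate 1. In OCNT minus YCNT 5 of the 30 were called higher (1.14% of all genes were) and none lower, 29 values were positive and the median was 1.57. The cytokine signalling inhibitor Socs3 rose by 3.19 (SE 0.76, edgeR adjusted p = 0.0407), and Junb by 2.35 (SE 0.47, adjusted p = 0.0123). Ier3, a regulator of cell survival, rose by 1.23 (SE 0.21, edgeR adjusted p = 0.00451), and the matrix protein gene Cyr61 by 6.47 (SE 1.54, adjusted p = 0.0397), from 0.147 ± 0.163 CPM (SD, n = 4) to 7.08 ± 4.75 CPM (n = 4). The fifth was Ppp1r15a (Gadd34), at 1.61. Ppp1r15a is named because it completes the 5 and was chosen after its value was seen. Without the 3 OB6CNT libraries 9 of the 30 values were positive, with a median of -0.64, and none was called. DESeq2 called 12 of the 30 and limma-voom 8, all higher, where they called 3.17% and 4.71% of all genes in either direction. In OISO minus OCNT 28 of the 30 had negative values, with a median of -1.15, and edgeR called none. This direction also turned without the 3 OB6CNT libraries, where 24 of the 30 values were positive and 6 negative, with a median of 1.01. The part of these immediate early levels in the Nr4a and Klf values was not tested.

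**Figure D4:**
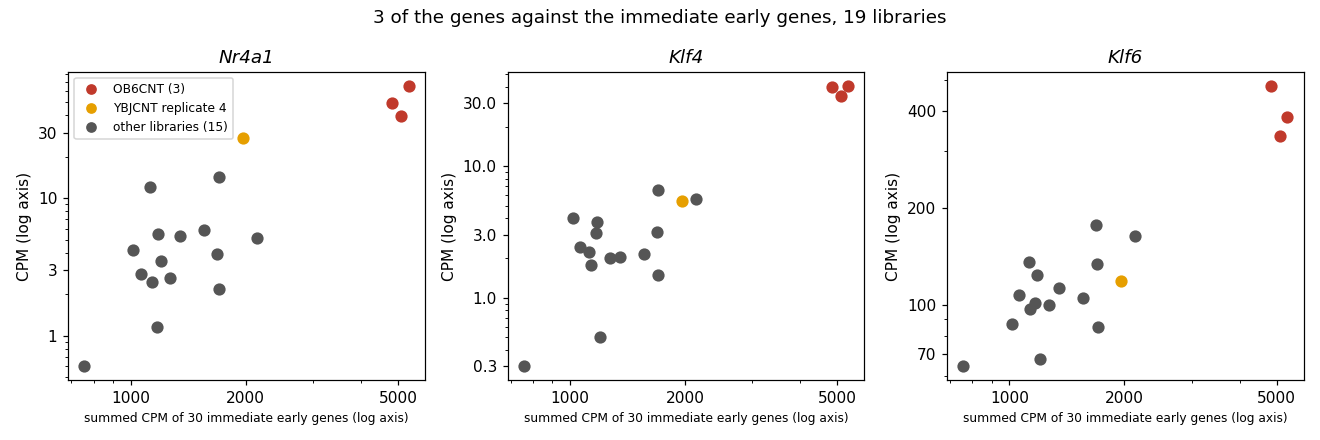
CPM of Nr4a1, Klf4 and Klf6 (vertical log axes) against the summed CPM of 30 immediate early genes (horizontal log axis), 1 point per library, with YBJCNT replicate 4 in yellow and the other 15 libraries in grey. The 3 OB6CNT libraries (red) are at 4840 to 5332 on the horizontal axis and the other 16 at 757 to 2136.

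Further lists covered the rest of the Klf family and genes around the Nr4a and Klf factors. Of 10 tested among 13 other Klf genes none was called in OCNT minus YCNT by edgeR, DESeq2 or limma-voom, 1 had an unadjusted p under 0.05, 7 values were positive and the median was 0.17. Over all genes 11.1% had an unadjusted p under 0.05 in this comparison. Klf1, the erythroid factor, was at -2.67 (SE 0.98, edgeR adjusted p = 0.252), Klf9, a glucocorticoid-inducible member, at 0.57 (SE 0.28, adjusted p = 0.475), and Klf13 at -0.40 (SE 0.21, adjusted p = 0.533). Of 9 tested among 10 partners and co-regulators of Nr4a receptors none was called by any of the 3 tools, 0 had an unadjusted p under 0.05, and their median was 0.03. Of 22 upstream kinases and factors 1 was called (1.41% of all genes were), Mef2c (0.55, SE 0.11, edgeR adjusted p = 0.0104), the MADS box factor that is a substrate of the kinase Erk5. It stood at 583 ± 42.2 CPM in OCNT and 402 ± 34.2 CPM in YCNT (SD, n = 4 each). Of the 22 values 13 were positive and 9 negative, with a median of 0.06. Without the 3 OB6CNT libraries 9 were positive and 13 negative, with a median of -0.05. The value of Mef2c without these libraries is not given here. Foxo1, a factor of stem cell maintenance, was at 0.51 (SE 0.19, edgeR adjusted p = 0.271).

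Of 14 tested among 15 reported targets of Klf2 and Nr4a factors none was called in OCNT minus YCNT by edgeR, 1 was by DESeq2 and 2 were by limma-voom, and 4 had an unadjusted p under 0.05. Over all genes 1.41%, 3.17% and 4.71% were called by these tools, and 11.1% had an unadjusted p under 0.05. There were 7 positive and 7 negative values with a median of -0.10. S1pr1, the sphingosine phosphate receptor that Klf2 controls in lymphocytes, was at 0.74 (SE 0.22, edgeR adjusted p = 0.125). The cell cycle inhibitor Cdkn1c was at 0.96 (SE 0.36, edgeR adjusted p = 0.277), and Tox, a nuclear factor of T cells, at 0.76 (SE 0.28, adjusted p = 0.248).

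Markers of other cells were compared over the same libraries, beside the OB6CNT levels. The 9 monocyte and macrophage markers summed to 169.7 to 195 CPM there and to 135 to 322 CPM in the other 16 libraries, the 7 endothelial markers to 235 to 285 against 166 to 292, and the 10 neutrophil markers to 72.4 to 98.6 against 42.9 to 896. The 6 B cell markers summed to 15.8 to 19.8 CPM against 8.48 to 31.6, and the 7 megakaryocyte and platelet markers to 397 to 558 against 99.1 to 732. Of 8 erythroid markers 6 were in the table, and they were lower in OB6CNT (5.81 to 6.70 against 11.4 to 224 CPM). Of 7 T and NK cell markers 5 were in the table, and they summed to 67.6 to 82.4 CPM against 16.1 to 72.1. Between the groups of OCNT minus YCNT, the megakaryocyte and platelet markers summed to 397 to 732 CPM in OCNT and 99.1 to 181 in YCNT, and edgeR called 2 of the 7 higher. Of these 7 values 5 were positive and 2 negative, and 1.14% of all genes were called higher. Without the 3 OB6CNT libraries 6 of the 7 values were positive and 1 negative, with a median of 1.02. The T and NK cell markers summed to 66.5 to 82.4 CPM in OCNT and 16.1 to 40.05 in YCNT. Of these 5 only 1 had a positive value, and it was called higher. The other 4 were negative, and the median of the 5 was -0.23 (-0.39 without OB6CNT). EdgeR also called 1 of 10 neutrophil markers higher, with 2 positive and 8 negative values (median -1.92, and 1.75 without OB6CNT). Among 6 endothelial markers tested it called 1 higher, with 4 positive and 2 negative values (median 0.14). It called no monocyte, B cell or erythroid marker. DESeq2 and limma-voom each called 1 erythroid marker lower, and limma-voom 1 monocyte marker higher and 1 lower. The part of these marker levels in the Nr4a and Klf values was not tested. In sorted bulk samples fewer cells of a type and less RNA per cell cannot be told apart.

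The columns with conflicting labels hold the highest Nr4a1 and the highest Nr4a2 level of the whole table. Library 4, OHETB6X replicate 1 by title and YHETBJ replicate 2 by description, had 187 CPM of Nr4a1, 81.4 of Nr4a2, 4.67 of Nr4a3 and 32.0 of Klf4, with 7.28 of Klf2 and 172 of Klf6. It held 7659468 counts, and its immediate early genes summed to 5348 CPM. Its neutrophil markers summed to 2837 CPM (at most 896 in the 19 libraries) and its B cell markers to 53.2 (at most 31.6), and their part in these levels was not tested. The highest Nr4a1 level among the 19 libraries with agreeing labels was 65.5 CPM, and the highest Nr4a2 level 76.1 CPM. The other library that is OHETX by title, library 14, had 1.96 CPM of Nr4a1, 13.5 of Nr4a2 and 5.27 of Klf4, so by title the libraries of the OHETX condition differ widely. By description OHETX would be libraries 5 and 15, with 1.33 and 7.78 CPM of Nr4a1.

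Library 11, OISOB6 replicate 1 by title and YBJCNT replicate 2 by description, had 28.9 CPM of Nr4a1, 42.7 of Nr4a2 and 15.3 of Klf2, each above all 4 OISO and all 4 YCNT libraries. Klf2 was also high in library 12 (14.2 CPM), and Klf4 in library 8 (15.9 CPM). Klf10 was at 241 CPM in library 7, above the 19 with agreeing labels. In the authors' deposited tables, whose direction is the first-named condition over the second, OHET over OHETX gave -1.54 for Nr4a2 (adjusted p = 0.00844), -1.35 for Klf4 (adjusted p = 0.0222) and -1.34 for Nr4a1 (adjusted p = 0.0623). OISO over OHETX gave -1.34 for Nr4a1 (adjusted p = 0.0795). With columns matched by title those OHETX values rest on library 4 and library 14. Fold changes were also computed here under both ways of matching and set against the authors' tables over all genes tested. For OISO over OHETX the Pearson r was 0.82 by title and 0.07 by description, and for OHET over OHETX 0.82 and 0.27. For YHET over OHETX it was 0.78 and -0.11. In every deposited comparison r was higher by title.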

How the data were processed

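Per the labels' protocols, RNA of haematopoietic stem cells sorted from bone marrow went into libraries made by a method for small RNA amounts. The authors deposited 1 table of estimated counts per gene (whole numbers, rounded again here) and tables of their own comparisons, which give log2 fold changes, the test's statistic as a score, and p-values with their adjusted form. In each of their comparisons most fold changes were not the score times its SE (89.4% to 98.0% of genes). The sizes there are therefore another measure than those fitted here. Salmon, DESeq2, FastQC, MultiQC and the build GRCm38 are named in the submitters' processing notes, and their versions are not given in the sources used here. The count table holds no gene with a row sum under 11. All libraries were counted separately. The closest pair of replicates differed by more than sampling noise (chi-square per degree of freedom 21.8), which cannot show whether libraries came from separate animals.

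Genes with low counts were dropped by condition (filterByExpr) and TMM scaling was applied. EdgeR's quasi-likelihood test (edgeR 4.0.16, R 4.3.3) took all 6 conditions and the strain in 1 model (12 residual degrees of freedom), with Benjamini-Hochberg adjustment over all 15675 genes tested. DESeq2 1.42.0, limma 3.58.1 with voom weights, other scaling, filters, column matching and sample sets were alternatives. Only the edgeR fit was tried on simulated data, for OCNT minus YCNT and with no strain effect simulated. The alternatives were not tried in this way. CPM values were computed here from counts and TMM-scaled totals. A prior count of 2 was used for correlations.

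The 7 genes were always named, with up to 4 genes per list by adjusted p in OCNT minus YCNT and the 6 genes of most like pattern. The members, lists and tests were chosen with earlier results of these data known. Gene positions came from GENCODE and promoters from RefSeq. Replicate numbers were not used to pair samples. A gene that the naming rule gives is not reported here.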

Additional observations from a re-analysis of the deposited data

Results flagged for a closer look

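Among the 4 YCNT libraries, Nr4a1 was at 27.4 CPM in YBJCNT replicate 4 and at 4.17 to 5.52 CPM in the other 3. Its gap to the nearest library was 0.942 of the group's range, above Dixon's 95% critical value for 4 samples. In all 21 such tests of the 7 genes were run over groups of 4 libraries, and chance marks about 1 group in 20. Without this library the edgeR call of Nr4a1 in OCNT minus YCNT was made (adjusted p = 0.0134).

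Library 4, whose title and description name different samples, had 187 CPM of Nr4a1 and 81.4 CPM of Nr4a2, above the highest of the 19 libraries with agreeing labels (65.5 and 76.1 CPM). Library 7, also with conflicting labels, had 241 CPM of Klf10, above the highest of the 19 (212 CPM).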

How the results depend on the processing

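The number of the 7 genes called in OCNT minus YCNT, 1 by edgeR over all conditions, was 3 with DESeq2, 5 with limma-voom, 2 within strain B6 and 0 without the 3 OB6CNT libraries, and 0 to 3 with 1 library left out. In OISO minus OCNT it was 0, and 2 with DESeq2, 3 with limma-voom, 2 within strain B6 and 0 to 2 with 1 library left out: 2 without OBJCNT replicate 1 (Nr4a1, adjusted p = 0.00347, and Klf6, adjusted p = 0.00634, with 0.0832% of all genes) and 1 without YBJCNT replicate 4 (Nr4a1, adjusted p = 0.0466, the 1 gene called). In OHET minus OCNT it was 0, and 1 by title, 1 by description (0.0124% of all genes), 3 with DESeq2, 2 in the conditions compared alone (0.0345%), 1 within strain B6 (0.0393%) and 0 to 1 with 1 library left out: 1 without OBJCNT replicate 1 (Klf6, adjusted p = 0.0155, with 0.0768% of all genes) and 1 without OHETB6 replicate 3 (Nr4a2, -5.37, adjusted p = 0.0202), where 4.32% of all genes were called and the 1 OHET library left was assumed to vary like the other groups. In YISO minus YCNT it was 0, and 1 with DESeq2. In the other 6 comparisons and in YISO minus YCNT it was 0 to 0 with 1 library left out. The cause of these changes was not tested.

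Without the 3 OB6CNT libraries, signs turned in OCNT minus YCNT for Nr4a1 (-0.21), Nr4a2 (-0.50), Nr4a3 (-2.82), Klf2 (-4.80) and Klf4 (-0.78), and in OISO minus OCNT for Nr4a2 (0.21), Nr4a3 (2.15), Klf2 (4.31), Klf4 (0.56) and Klf6 (0.21). They also turned in OHET minus OCNT for Nr4a1 (1.01), Nr4a3 (2.25) and Klf2 (5.09), and in the difference of the age effects for Klf4 (-1.61) and Klf6 (-0.48). By title, Nr4a1 in OHET minus OISO turned to -0.17. Of 877 values of single genes under the alternatives, 825 stayed the same, 32 passed the threshold newly, 4 no longer passed it and 16 changed sign. For fold changes, staying the same meant keeping direction and side of the threshold. Among the 825 are 7 mean levels in OB6CNT scaled by the column total, which moved by less than their SD. Most of the 877 came from leaving out 1 library at a time.

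No paired analysis was possible because the labels do not say which animals were partners and the replicate numbers only name samples. The gene lists without OB6CNT and under the other tools were alternatives chosen after seeing the data. OCNT holds 1 BoyJ library and OHET and YHET 2 libraries each, which limits what their tests can detect. Nr4a3 was near 1 CPM in most libraries, so its values rest on few counts.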
